A study of Homo sapiens with 12 samples.

Results

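U2932 is an established human cell line of diffuse large B-cell lymphoma (DLBCL), commonly classed as activated B-cell type. Its response to lenalidomide and to avadomide was described from 3 of the 12 libraries of the study. These were 1 library of U2932 after 18 hours in DMSO, the solvent, 1 after lenalidomide and 1 after avadomide, which the labels also call CC-122. The other 9 libraries came from SUDHL-4, TMD8 and WSU-DLCL2, 3 further DLBCL lines given the same treatments, and serve here as the comparison. No dose is stated in the labels, and the compounds cannot be taken as dose-matched. Of the 58656 genes kept, 12448 had a log2 value of 7 or more in at least 1 U2932 library, and the genes of U2932 described as higher or lower were counted among these. At this floor C21orf62-AS1 lay just outside, with a highest value of 6.9997, and AC006509.4 just inside, with 7.0004. U2932 is known to hold genetically distinct subclones, and these bulk libraries do not separate them. Where 3 values follow each other without names, those of U2932 are ordered DMSO, lenalidomide, avadomide, and those of the other lines SUDHL-4, TMD8, WSU-DLCL2. In a bulk library, fewer cells of a kind and less RNA per cell cannot be told apart.

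Lenalidomide and avadomide are small molecules that bind cereblon (CRBN). Cereblon picks the substrates of a ubiquitin ligase built on DDB1 and a CUL4 scaffold. Both carry the glutarimide ring that sits in the cereblon pocket. Lenalidomide joins this ring to an aminoisoindolinone and avadomide to an aminoquinazolinone. The bound ligase marks Ikaros (IKZF1) and Aiolos (IKZF3), transcription factors of lymphoid cells, for degradation as proteins, so a change in their mRNA is not a measure of the protein. In B-cell lymphoma both proteins are known as repressors of interferon-stimulated genes and as part of the network that keeps IRF4 and MYC expressed. Interferon-stimulated genes carry a short DNA element in their promoters that is bound by an interferon-activated complex holding STAT2 and IRF9 and by other interferon regulatory factors.

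The promoters of 4 interferon-stimulated genes with some of the widest differences in U2932 are shown because they hold the core of this element. The core was searched as GAAANNGAAA on both strands, in windows of 300 bases around each RefSeq gene start (GRCh38.p14), with overlapping matches counted. It was present in 3.65% of all promoters of that length (996 of 27305). Capitals mark the core, which reads as its reverse complement where it lies on the other strand, and each sequence runs 5′ to 3′ on the strand of its gene. Relative to the RefSeq start, the last core marked in each sequence began at -73 in IFI44L, -103 in IFIT1, -122 in IFIT3 and 11 in MX1.
IFI44L, chr1:78620330-78620429 (+): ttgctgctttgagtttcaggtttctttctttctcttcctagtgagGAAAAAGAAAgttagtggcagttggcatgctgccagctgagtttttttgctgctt
IFIT1, chr10:89392475-89392574 (+): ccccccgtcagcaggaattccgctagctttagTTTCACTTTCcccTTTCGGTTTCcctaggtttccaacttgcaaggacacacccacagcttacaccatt
IFIT3, chr10:89327830-89327929 (+): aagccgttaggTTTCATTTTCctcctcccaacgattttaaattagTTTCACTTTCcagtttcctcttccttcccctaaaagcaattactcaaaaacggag
MX1, chr21:41420524-41420607 (+): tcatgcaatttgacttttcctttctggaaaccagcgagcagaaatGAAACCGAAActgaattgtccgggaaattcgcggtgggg

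Among genes at the floor in U2932 with a RefSeq promoter, 3.05% held the core (286 of 9371). Among those at least 2-fold higher with avadomide the share was 10.7% (29 of 272), and outside the interferon response list it was 3.72% (9 of 242). Of the genes at least 2-fold lower with avadomide, 1.96% held it (1 of 51). Of those at least 2-fold higher with lenalidomide, 11.1% did (7 of 63). In the interferon response list itself 66.7% of promoters held the core (26 of 39). For XAF1 and CMPK2 no match was recorded, which is also the entry for a gene without a RefSeq promoter sequence. A match is a string of letters and not a measured binding site.

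From 13865 to 15294 genes reached a log2 value of 5, and mitochondrial transcripts held a share of 3.95 to 5.27% of all linear values. All 7 B cell markers were at 5 or more in the U2932 libraries. U2932 had high values both for activated B-cell type genes, with IRF4 at 14.71 and PIM2 at 14.04 with DMSO, and for germinal-centre type genes, with BCL6 at 14.89 and MME, which encodes CD10, at 12.53. CCND2, another gene of the activated type, was at 3.95, and the lowest germinal-centre type gene was at 4.86. With DMSO, 9 of the 10 genes of each type were at 5 or more. Of the 10 T and NK cell markers 3 were at 5 or more in each U2932 library, and the log2 of their summed linear values was 10.42 with DMSO, 11.17 with lenalidomide and 11.63 with avadomide. TRAC made up most of this, at 10.26, 11.04 and 11.34, and CD4 was at 6.22, 6.75 and 8.91, while the defining T-cell marker CD3E was at 4.42, 4.61 and 4.82. Of 9 myeloid markers 1 was at 5 or more in each, with summed values of 6.13, 6.68 and 6.62, and S100A8 was listed at 0. Of 10 stromal and epithelial markers 4 were, with sums of 11.17, 11.32 and 11.28. PECAM1, an endothelial marker, was at 6.93, 7.48 and 9.16. Among markers at 5 or more in any of the 12 libraries, some were at least 2-fold higher with avadomide in U2932, and none lower. These were 3 of 5 T and NK cell, 2 of 4 myeloid and 3 of 6 stromal and epithelial markers. Over all genes at that floor 5.63% were higher and 1% lower. In the same order, the counts of higher markers were 2, 2 and 3 in TMD8, 3, 1 and 3 in WSU-DLCL2 and 1, 0 and 0 in SUDHL-4. In SUDHL-4 2 myeloid markers were lower, and in WSU-DLCL2 1 stromal and epithelial marker. The median differences of these 3 marker lists in U2932 were 1.08, 0.800 and 0.688 with avadomide and 0.676, 0.520 and 0.444 with lenalidomide. Over all genes at that floor the medians were 0.012 and 0.007. The part of these genes in the results below was not tested.

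Avadomide was accompanied in U2932 by many more genes with higher than with lower values. Of the 12448 genes, 406 (3.26%) were at least 2-fold higher with avadomide than with DMSO, that is, by 1 or more on the log2 scale, and 87 (0.699%) were at least 2-fold lower. With lenalidomide 96 genes (0.771%) were at least 2-fold higher and 18 (0.145%) at least 2-fold lower. Both comparisons use the same DMSO library. With 1 library per treatment these are counts without a test. At the 2-fold limit for avadomide, CH17-472G23.2 lay just inside with a difference of 1.003 and HTR3A just outside with 0.996. Set against each other, the avadomide library was at least 2-fold above the lenalidomide library for 184 genes (1.48%) and at least 2-fold below it for 25 (0.201%), which compares the libraries at doses that are not given.

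By the number of genes higher or lower with avadomide, or higher with lenalidomide, U2932 came after TMD8 and before WSU-DLCL2 and SUDHL-4. For genes lower with lenalidomide U2932 came first. With avadomide, TMD8 had 605 genes at least 2-fold higher (4.87%), WSU-DLCL2 had 320 (2.71%) and SUDHL-4 had 47 (0.409%). At least 2-fold lower were 10 (0.0869%), 159 (1.28%) and 40 (0.339%) in the order SUDHL-4, TMD8, WSU-DLCL2. Each count is among the genes at the floor in that line. With lenalidomide the counts of higher genes were 1 (0.00869%), 147 (1.18%) and 46 (0.39%) in the other lines, and those of lower genes 0 (0%), 11 (0.0886%) and 2 (0.0169%). Of the 406 genes higher with avadomide in U2932, 178 were also at least 2-fold higher in TMD8, which is 43.8% of the U2932 genes and 29.4% of those of TMD8. The overlap with WSU-DLCL2 was 129 genes, 31.8% of the U2932 genes and 40.3% of those of WSU-DLCL2. With SUDHL-4 it was 18 genes, 4.43% and 38.3%. Counted at any level, 38 of the 406 were 2-fold higher in all 3 other lines and 116 in none of them. Of the 87 lower genes, 4 were 2-fold lower in all 3 other lines and 57 in none. For lenalidomide, 51 of the 96 higher and 17 of the 18 lower genes were 2-fold the same way in no other line. In each other line 4.87% or less of the genes at its floor were 2-fold higher, and fewer were lower. Most genes at large would therefore be unshared too, and the unshared counts do not mark genes as particular to U2932. With so few lower genes in the other lines, 17 of 18 unshared lies near the background. Below a log2 value of 5 in all 9 other libraries were 37 of the 406 higher and 16 of the 87 lower genes with avadomide. With lenalidomide 18 of the 96 higher and 8 of the 18 lower genes were. Of all 12448 genes, 11440 reached 5 in a library of every other line. The share of all genes below 5 in all 9 was not counted.

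**Figure D1:**
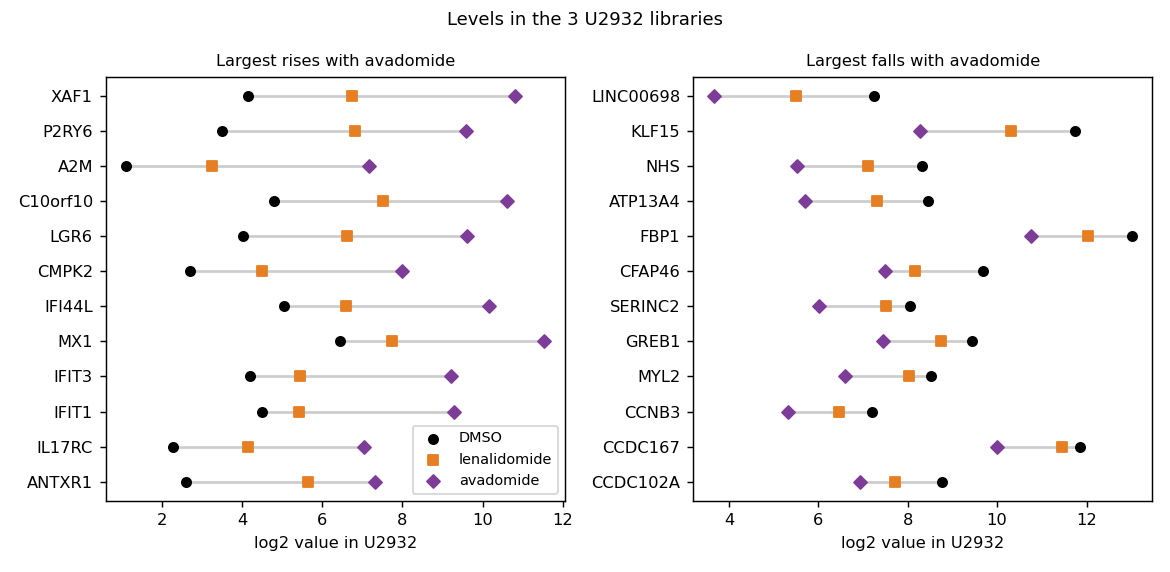
Log2 values in the 3 U2932 libraries for the 12 genes with the largest positive (left) and negative (right) avadomide differences among genes named by symbol at the floor of 7, with DMSO as circles, lenalidomide as squares, avadomide as diamonds and a grey line from DMSO to avadomide. For each of the 24 genes the lenalidomide value lies between the DMSO and the avadomide value.

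Of the 12 symbol-named genes with the widest positive avadomide differences, 6 are in the interferon response list. XAF1, which encodes an antagonist of the apoptosis inhibitor XIAP, was at 4.14 with DMSO, 6.73 with lenalidomide and 10.81 with avadomide, a difference of 6.67 (log2) for avadomide, beside 1.99, 5.09 and 6.49 in the other lines. P2RY6, a receptor for the nucleotide UDP, was at 3.50, 6.82 and 9.58 in the same order, and its lenalidomide difference of 3.32 was the largest of any symbol-named gene at the floor. P2RY6 differed by 0.26, 3.16 and 1.48 in the other lines with avadomide. A2M, a secreted protease inhibitor, was at 1.11, 3.25 and 7.16 in U2932. Its avadomide difference of 6.05 stood beside 1.40, 6.27 and 1.55 in the other lines. The U2932 DMSO values of these genes are low on a log2 scale whose transform is not stated, so their fold is uncertain.

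C10orf10, now named DEPP1 and known as a target of FOXO transcription factors, was at 4.78 with DMSO, 7.51 with lenalidomide and 10.60 with avadomide. Both of its U2932 differences, 2.73 with lenalidomide and 5.81 with avadomide, lay above those of the 3 other lines, which were at most 0.89 and 4.25. In TMD8, C10orf10 was already at 10.33 with DMSO and reached 11.62 with avadomide. LGR6, a receptor for R-spondins, was at 4.02, 6.62 and 9.62. Its differences of 2.60 and 5.60 likewise lay above the other lines, which were at most 0.82 and 3.39. IL17RC, a subunit of the interleukin-17 receptor, differed by 4.77 with avadomide in U2932 and by 4.42 in TMD8, against -0.24 in SUDHL-4 and 0.26 in WSU-DLCL2. ANTXR1, a cell-surface receptor for anthrax toxin, differed by 3.04 with lenalidomide and 4.71 with avadomide. Among the genes with the widest lenalidomide differences, BACE1, the beta-secretase, was at 3.91, 6.51 and 8.27, and TNFSF15, a cytokine of the TNF family, at 3.09, 5.55 and 7.56. FMOD, which encodes the matrix protein fibromodulin, was at 6.71, 9.05 and 10.25, and its avadomide difference of 3.55 stood beside 0.29, 5.11 and 0.02 in the other lines.

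Among the 12 symbol-named genes with the widest negative avadomide differences, 6 were below 5 in all 9 libraries of the other lines. Over all 12448 genes at the floor in U2932, 11440 reached 5 in a library of every other line. KLF15, a zinc-finger transcription factor, was at 11.75 with DMSO, 10.30 with lenalidomide and 8.27 with avadomide, a difference of -1.45 and -3.48, while none of the 9 other libraries was above 1.97. FBP1, the gluconeogenic enzyme fructose-1,6-bisphosphatase, was at 13.01, 12.03 and 10.75 in U2932 and at 4.72 or less elsewhere. LINC00698, a long noncoding RNA, was at 7.25, 5.51 and 3.66. NHS, named for Nance-Horan syndrome, was at 8.32, 7.12 and 5.53, and CFAP46, a component of motile cilia, at 9.69, 8.17 and 7.50. A gene near the bottom of the scale in another line cannot show a fall there. ATP13A4, a P-type ATPase, was lower in every line, with avadomide differences of -2.76 in U2932 and -1.48, -1.99 and -1.57 in the other lines. GREB1, an oestrogen-induced gene in breast tissue, was also lower in every line, at -1.97 for U2932, -1.03 for TMD8 and -1.68 for WSU-DLCL2, and with SUDHL-4 close to TMD8.

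Among the 18 genes at least 2-fold lower with lenalidomide, SNCAIP, which encodes synphilin-1, was the 1 whose difference was wider with lenalidomide than with avadomide. It was at 9.83 with DMSO, 8.46 with lenalidomide and 8.89 with avadomide. KCNQ1, a potassium channel subunit, was at 8.91, 7.60 and 7.10, and NAV2, a neuron navigator protein, at 9.82, 8.52 and 8.18. KCNQ1 was at 1.67 or less in every library of the other lines, where no fall could be seen.

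Whether the U2932 difference departs from that of the other lines was tested for each of 22528 genes. The difference between the U2932 change and the mean change of SUDHL-4, TMD8 and WSU-DLCL2 was set against the spread of changes among those lines, with limma, Benjamini-Hochberg adjustment over all genes and a two-sided threshold of 0.05. Both compounds were fitted together, so each gene has 1 spread estimate, shared by avadomide and lenalidomide. The U2932 library is assumed to vary like the others, since U2932 has no replicate of its own. For avadomide 3 genes passed (0.0133%), all with the higher change in U2932; after quantile normalization 12 passed, 9 higher and 3 lower. For lenalidomide none passed (0%), with a smallest adjusted p of 0.479. At an unadjusted p under 0.05 there were 1962 genes (8.71%) for avadomide and 444 (1.97%) for lenalidomide. Fitting each compound alone lowered the first of these counts and raised the second. The median standard error of such a difference was 0.253. The count depended on the fit. Of the 9 alternative fits, the 6 that left out any 1 of the other lines, the lenalidomide libraries, the cell line term or the intensity trend called no gene for avadomide.

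LRFN4 (chromosome 11, 66856647 to 66860475, hg38), which encodes a leucine-rich repeat adhesion protein of neurons, was at 8.52 with DMSO, 9.29 with lenalidomide and 9.82 with avadomide in U2932. LRFN4 had higher values in the other lines, at 10.70, 10.99 and 10.13 with DMSO and 10.56, 10.67 and 9.95 with avadomide. With avadomide it was lower in every other line, with changes of -0.14, -0.32 and -0.18, so that the U2932 change exceeded their mean by 1.52 (SE 0.113, limma adjusted p = 0.0189). C1orf186 (chromosome 1, 206052723 to 206102459, hg38), now named RHEX and known as a regulator of erythroid cell expansion, was at 9.89, 10.71 and 11.75. Its changes in the other lines were 0.16, 0.07 and 0.28, and the U2932 change exceeded their mean by 1.69 (SE 0.125, limma adjusted p = 0.0189). NELL2 (chromosome 12, 44508275 to 44921848, hg38), a secreted protein with EGF-like domains, was at 4.52, 6.24 and 6.87, below the floor of 7, and is named here after its values were seen. The U2932 change exceeded the mean of the others by 2.09 (SE 0.172, limma adjusted p = 0.0252). NELL2 was at 13.07 with DMSO in SUDHL-4, at 9.13 in WSU-DLCL2 and at 4.15 in TMD8. With lenalidomide the same differences were 0.77 for LRFN4, 0.84 for C1orf186 and 1.61 for NELL2, none past the threshold.

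**Figure D2:**
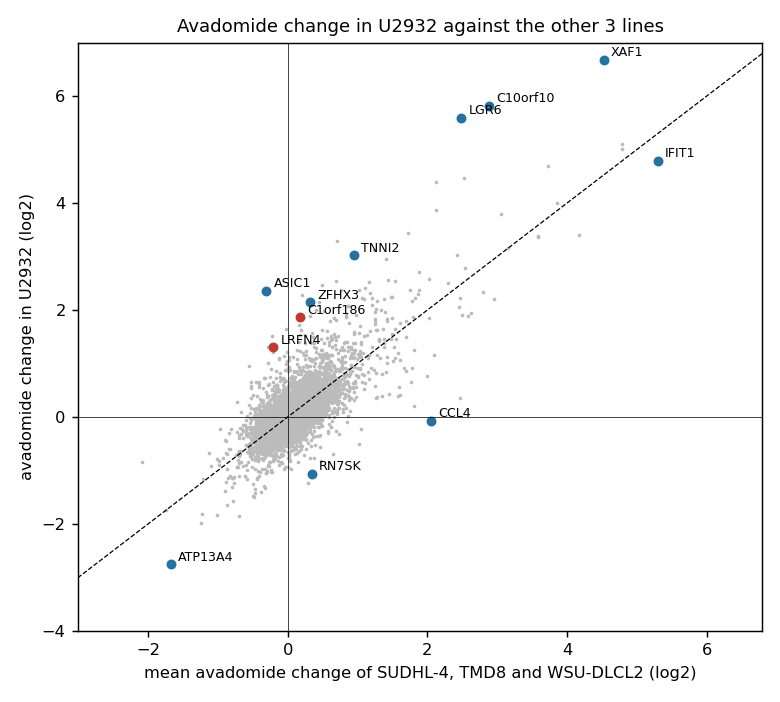
Avadomide minus DMSO (log2) in U2932 on the vertical axis against the mean of the same change in SUDHL-4, TMD8 and WSU-DLCL2 on the horizontal axis, 1 point for each of 11440 genes at the floor in U2932 and at 5 or more in every other line, with the dashed line marking equal change. The genes called by limma that meet both floors, LRFN4 and C1orf186, are in red and other described genes in blue; C10orf10 and LGR6 lie above the line and CCL4 and RN7SK below it.

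A wider view ranks genes by the gap between U2932 and the nearest of the other lines, among the 11440 genes at the floor in U2932 and at 5 or more in each other line. This is a description chosen for the difference, without a test. With avadomide 27 genes in U2932 lay at least 1 above every other line and 2 at least 1 below. The same count for TMD8 was 71 above and 27 below, for WSU-DLCL2 51 and 2, and for SUDHL-4 0 and 27. With lenalidomide 5 genes in U2932 lay at least 1 above every other line and none at least 1 below.

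**Figure D3:**
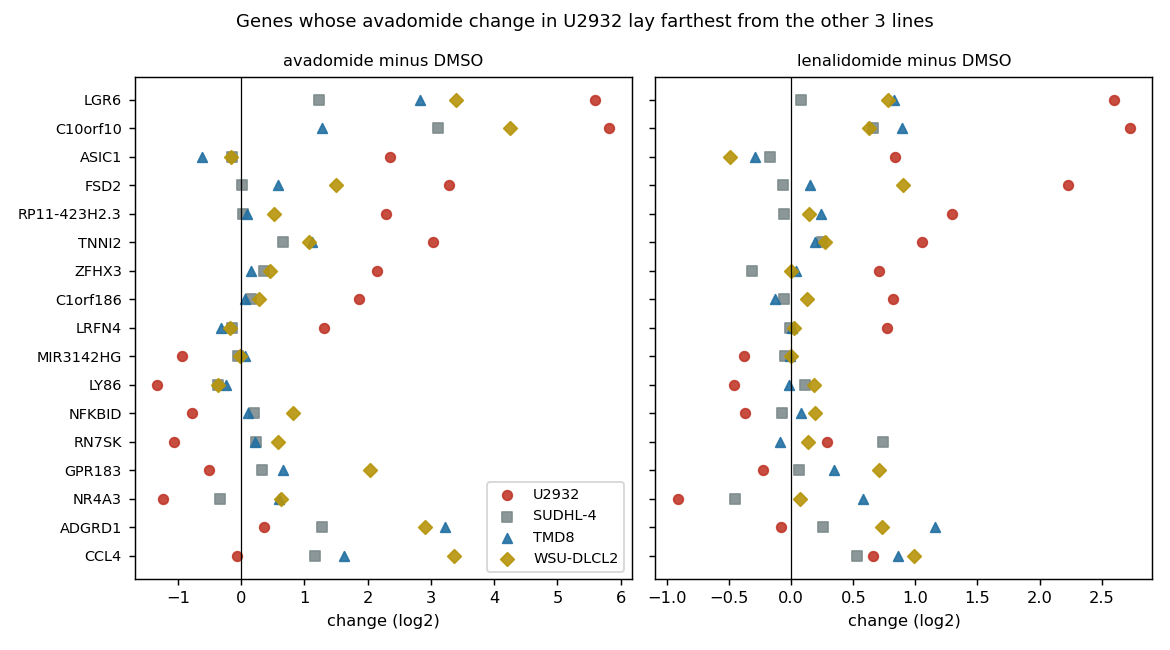
Change against DMSO (log2) with avadomide (left) and lenalidomide (right) in each of the 4 lines, 1 marker per library, for the genes with the widest gap between U2932 and the nearest other line under avadomide and the called genes. The U2932 circles lie to the right of all other markers for the upper 9 genes and to the left for the lower 8 in the avadomide panel.

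The genes above the other lines included ASIC1. ASIC1, a proton-gated sodium channel, was at 5.67 with DMSO, 6.51 with lenalidomide and 8.03 with avadomide. In the other lines ASIC1 was at 8.64, 8.32 and 7.72 with DMSO and 8.50, 7.70 and 7.56 with avadomide. It differed by 2.36 with avadomide in U2932 (limma adjusted p = 0.0623 for the difference from the mean of the other lines). ASIC1 was lower with avadomide in each other line, with changes of -0.14, -0.63 and -0.15. TNNI2, the fast skeletal troponin I, differed by 3.03 against 0.65, 1.12 and 1.07. ZFHX3, a large homeodomain transcription factor, was at 8.76, 9.47 and 10.91, and its avadomide difference of 2.14 stood beside 0.36, 0.15 and 0.46. FSD2, a fibronectin and SPRY domain protein, was at 6.44, 8.67 and 9.72, with a lenalidomide difference of 2.23 against at most 0.90 elsewhere. MYADML2 was at 10.00, 10.99 and 11.32, and its lenalidomide difference of 0.99 stood beside -0.06, -0.26 and 0.08.

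The widest gaps below the other lines were those of RN7SK and CCL4. CCL4, a chemokine made by activated B cells, was at 6.60 with DMSO, 7.26 with lenalidomide and 6.53 with avadomide in U2932. Its avadomide differences in SUDHL-4, TMD8 and WSU-DLCL2 were 1.17, 1.62 and 3.36. NFKBID, an atypical inhibitor of NF-kB, was at 12.71, 12.34 and 11.94, a difference of -0.78 with avadomide against 0.20, 0.11 and 0.81. MIR3142HG, the host transcript of the NF-kB-induced microRNA miR-146a, was at 12.36, 11.98 and 11.43. Its avadomide difference of -0.94 stood beside values within 0.07 of 0 in the other lines (limma adjusted p = 0.0623). NR4A3, an immediate-early nuclear receptor, was at 8.97, 8.06 and 7.74, and GPR183, the oxysterol receptor that guides B-cell migration, at 8.85, 8.63 and 8.34. LY86, the partner of CD180, a Toll-like receptor relative on B cells, was at 12.14, 11.68 and 10.81. Its difference of -1.33 stood beside -0.36, -0.24 and -0.37. RN7SK, a small nuclear RNA with many related copies in the genome whose counts are uncertain, differed by -1.07 against 0.24, 0.22 and 0.58.

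OS9 and FAM65A were about as low with lenalidomide as with avadomide in U2932. OS9 (chromosome 12, 57693955 to 57721557, hg38), a lectin of endoplasmic reticulum-associated degradation, was at 14.29 with DMSO, 13.63 with lenalidomide and 13.65 with avadomide. None of the 6 changes in the other lines was beyond 0.08 in size, and neither U2932 difference passed limma's threshold (adjusted p = 0.824 for lenalidomide and 0.0761 for avadomide). FAM65A, now named RIPOR1 and known to bind small GTPases, was at 10.10, 9.16 and 9.26. Its avadomide difference of -0.84 stood beside -0.02, 0.09 and 0.39 in the other lines.

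The interferon response was the gene list with the highest avadomide median in U2932. Of its 49 measured members, 41 (83.7%) were at least 2-fold higher with avadomide and none lower, with a median difference of 2.16. Over all 17571 genes at the floor for lists, a log2 value of 5 or more in any library, the median was 0.012, with 5.63% at least 2-fold higher and 1% at least 2-fold lower. These shares are the background for the avadomide counts of the other lists below. With lenalidomide the median of the list was 0.309 and 10 members (20.4%) were at least 2-fold higher, against 1.71% of all genes higher and 0.336% lower. The medians with avadomide were 0.307, 1.99 and 2.53 in the other lines. No member differed between U2932 and the mean of the other lines at limma's threshold (smallest adjusted p = 0.257), which does not show that they responded alike. The list was drawn up with the interferon result of these data known.

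**Figure D4:**
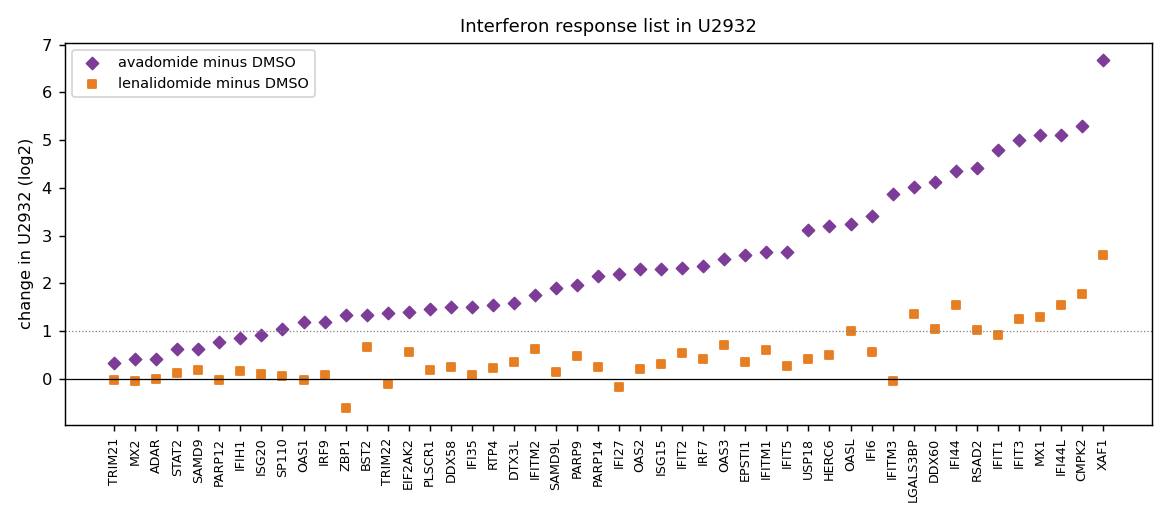
Change against DMSO (log2) in U2932 for the measured members of the interferon response list that are reported here, avadomide as diamonds and lenalidomide as squares, ordered by the avadomide change, with a dotted line at 1. All diamonds lie above 0, from 0.33 for TRIM21 to 6.67 for XAF1, while 10 squares reach the dotted line.

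Among the effectors that act on viral RNA and replication, MX1, a dynamin-like antiviral GTPase, was at 6.44 with DMSO, 7.74 with lenalidomide and 11.54 with avadomide. IFIT1, which binds foreign RNA caps, was at 4.50, 5.43 and 9.29, and its partner IFIT3 went from 4.20 to 5.45 and 9.21. IFI44L was at 5.04, 6.60 and 10.15. For these 4 genes, whose promoters are printed above, the lenalidomide differences were 0.93 to 1.56 and the avadomide differences 4.79 to 5.11. In WSU-DLCL2 the avadomide differences of all 4 were larger, at 7.34 for IFIT1, 6.59 for IFIT3, 6.82 for IFI44L and 5.68 for MX1. In TMD8 those of IFIT1, IFIT3 and IFI44L were larger too, at 5.74, 5.11 and 5.81, and that of MX1 was 3.36. CMPK2, a mitochondrial nucleotide kinase that lies beside RSAD2 in the genome, was at 2.70, 4.49 and 7.99 in U2932. Its difference of 5.29 stood beside 2.57 in WSU-DLCL2, 0.44 in SUDHL-4 and 0.01 in TMD8. With DMSO, CMPK2 was at 8.39 in WSU-DLCL2, 7.38 in SUDHL-4 and 2.48 in TMD8. MX2, a relative of MX1, was at 13.11 with DMSO and 13.52 with avadomide, a difference of 0.42 against 3.70 in WSU-DLCL2. CMPK2 and XAF1 were chosen by their size, and MX2 was named after its values were seen.

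Upstream of these effectors, IRF7, the factor that amplifies type I interferon production, was at 9.24 with DMSO, 9.67 with lenalidomide and 11.62 with avadomide. Its difference of 2.37 stood beside -0.06, 2.42 and 2.88 in the other lines. The receptor chain IFNAR1 was at 12.29, 12.42 and 12.57. Over the 20 measured interferon receptors, sensors and regulators the avadomide median was 0.097. Against 5.63% of all genes higher and 1% lower, 2 members (10%) were at least 2-fold higher and none lower. One of these was TLR7, the endosomal sensor of single-stranded RNA, at 6.82, 7.85 and 9.95. Its lenalidomide difference of 1.03 stood beside 0.07, -0.04 and -0.07 in the other lines, and its avadomide difference of 3.12 beside 0.68, 0.93 and 2.10. The other was TMEM173, the adaptor STING, which stayed at 3.42 or less. SOCS1, a feedback inhibitor of cytokine signalling, was at 8.87, 8.26 and 7.90, a difference of -0.97 with avadomide, against 0.60 in TMD8.

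The mRNAs of the drug target and its substrates were measured in every library. CRBN was at 11.42 with DMSO, 11.37 with lenalidomide and 11.28 with avadomide. IKZF1 was at 15.09, 15.64 and 16.11. Its U2932 differences, 0.55 and 1.02, were the largest of the lines, the others being 0.04 to 0.33 with lenalidomide and 0.39 to 0.84 with avadomide, but the departure from their mean, 0.40 with avadomide, did not pass limma's threshold (SE 0.160, adjusted p = 0.540). IKZF2, which encodes Helios, was at 10.20, 10.57 and 11.10, and IKZF3 at 15.41, 15.58 and 15.66. ZNF692, a zinc-finger protein reported as a cereblon neosubstrate, was at 12.10, 12.50 and 12.61. Over the 15 members of this list the avadomide median was 0.034. IKZF1 was the member at least 2-fold higher (6.67%, against 5.63% of all genes) and none was lower.

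**Figure D5:**
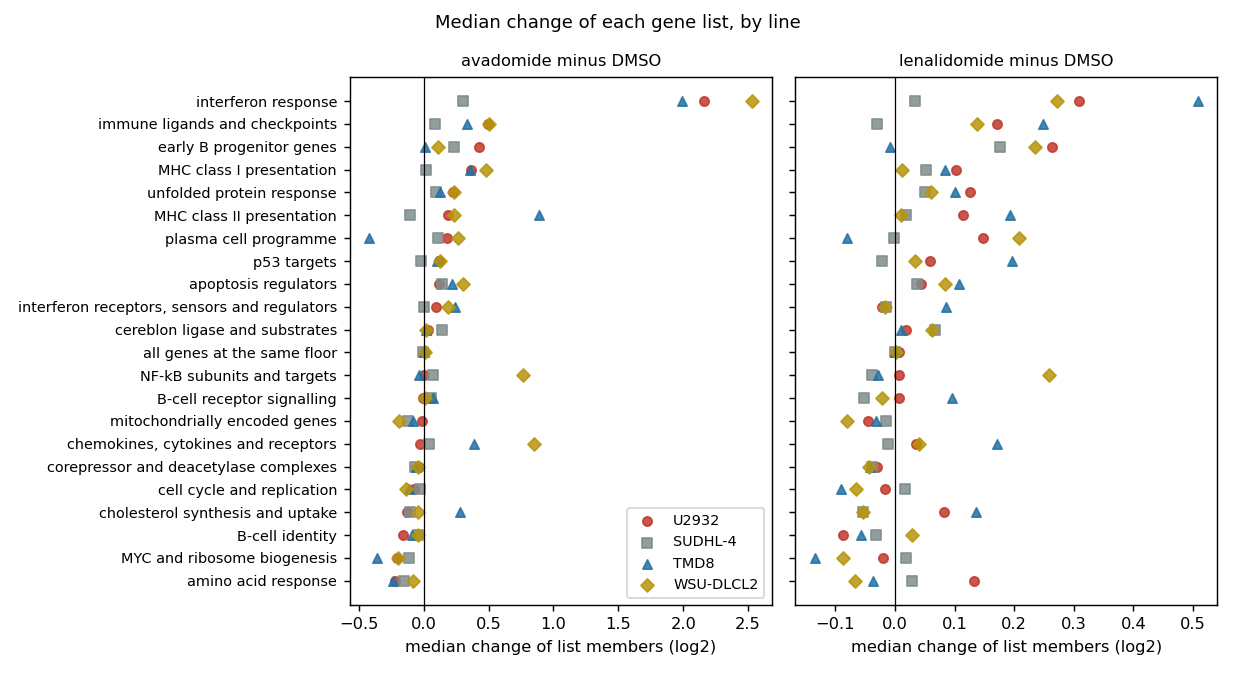
Median change against DMSO (log2) over the measured members of each of 21 gene lists and over all 17571 genes at the same floor, for avadomide (left) and lenalidomide (right), 1 marker per line; the horizontal scales of the panels differ. The interferon response list lies farthest right in U2932 in both panels, at 2.16 and 0.309, and the NF-kB list of WSU-DLCL2 at 0.765 stands apart from U2932 at 0.000.

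The 25 NF-kB subunits and targets had a median near 0 in U2932 with avadomide, where WSU-DLCL2 had a median of 0.765. In U2932, 1 member (4%) was at least 2-fold higher and 1 (4%) lower, against 5.63% and 1% of all genes. LTB, which encodes lymphotoxin beta, was at 11.66 with DMSO, 11.91 with lenalidomide and 12.75 with avadomide. Its difference of 1.10 stood beside -0.04, 0.03 and -0.38 in the other lines. CCL22, a chemokine that draws regulatory T cells, was at 9.30, 8.19 and 8.01, lower by a similar amount with both compounds. Its avadomide difference of -1.29 stood beside -2.04 in TMD8, while SUDHL-4 and WSU-DLCL2 were below 5 in every library. BCL2A1, an anti-apoptotic BCL2 relative induced by NF-kB, was at 14.19, 14.14 and 13.47. Its avadomide difference of -0.72 stood beside 0.42, -1.35 and 1.64 in the other lines. TNF was at 11.48, 12.03 and 12.26. The noncanonical subunits NFKB2 and RELB, named after their values were seen, differed by -0.62 and -0.59 with avadomide.

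Among the 26 measured chemokines, cytokines and receptors, 8 (30.8%) were at least 2-fold higher with avadomide and 2 (7.69%) lower, against 5.63% and 1% of all genes. The median was -0.031. The counts in TMD8 were also 8 and 2. CXCL10, the interferon-induced ligand of CXCR3, was at 5.66 with DMSO, 7.79 with lenalidomide and 9.51 with avadomide. CCL17, which binds the same receptor as CCL22, was at 7.73, 6.81 and 6.58, and its avadomide difference of -1.15 stood beside 0.81 in TMD8, while SUDHL-4 and WSU-DLCL2 were at 2.03 or less in every library. IL6R, the interleukin-6 receptor, was at 9.96, 10.27 and 11.27. Of the 2 members that were lower, both are CCR4 ligands, CCL17 and CCL22. CCL22 fell further in TMD8, by -2.04 against -1.29 in U2932.

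IRF4, the factor on which activated B-cell type lymphoma depends, was at 14.71 with DMSO, 14.44 with lenalidomide and 14.03 with avadomide. The avadomide difference of -0.68 stood beside -1.14 in TMD8, the other line commonly classed as activated B-cell type, and 0.02 in SUDHL-4 and 1.51 in WSU-DLCL2, which are classed as germinal-centre type. SPIB, an ETS factor that pairs with IRF4, was at 14.04, 13.39 and 12.99, a difference of -1.05 against -0.29, -0.60 and -0.04. CR2, the complement receptor CD21, was at 9.74, 8.88 and 8.50. SPIB and CR2 were the 2 of 20 B-cell identity genes at least 2-fold lower (10%, against 1% of all genes), none was higher, and the list median was -0.160. BLNK, the B-cell linker protein, was at 13.36, 13.08 and 12.74, and the median over the 18 genes of B-cell receptor signalling was -0.004. Of the 14 plasma cell genes none reached a 2-fold difference, and the avadomide median was 0.181 against -0.422 in TMD8. XBP1, which drives the secretory programme, was at 13.76, 13.91 and 14.44.

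The 15 MHC class I genes had an avadomide median of 0.367, and 2 (13.3%) were at least 2-fold higher, against 5.63% of all genes. The 2 were NLRC5, the transactivator of these genes, at 10.84, 11.06 and 12.08 and HLA-F at 9.19, 9.46 and 10.44. HLA genes share near-identical stretches, so their counts are uncertain. The 14 MHC class II genes had a median of 0.186 and none reached a 2-fold difference, while the median in TMD8 was 0.888. CIITA, the class II transactivator, was at 13.79, 13.88 and 14.22. The 19 measured immune ligands and checkpoints had an avadomide median of 0.497. Of these, 3 (15.8%) were at least 2-fold higher and 1 (5.26%) lower, against 5.63% and 1% of all genes. HVCN1, a proton channel of B cells, was at 11.68, 12.58 and 13.00. Its avadomide difference of 1.31 stood beside 1.17, 0.33 and 0.80 in the other lines. C10orf54, which encodes the checkpoint ligand VISTA, was at 7.48, 7.59 and 8.95. Its difference of 1.47 stood beside 0.37, 4.01 and 0.26.

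The 24 genes of MYC and ribosome biogenesis had an avadomide median of -0.203, and 3 of them had a positive difference. Over all 17571 genes at the floor for lists, 9124 had a positive avadomide difference in U2932. In the other lines 6, 3 and 2 of the 24 were positive, with medians of -0.109, -0.357 and -0.201. MYC was at 11.24 with DMSO, 11.13 with lenalidomide and 10.87 with avadomide, and ODC1, the rate-limiting enzyme of polyamine synthesis, at 16.13, 16.14 and 15.78. None of the 32 cell cycle and replication genes reached a 2-fold difference (median -0.076). The amino acid response list had a median of -0.220 with avadomide and 0.132 with lenalidomide over 16 genes. ASNS, asparagine synthetase, was at 13.83, 13.79 and 13.20, and CHAC1, a glutathione-degrading enzyme, at 9.82, 10.06 and 9.25. The 14 genes of the unfolded protein response had an avadomide median of 0.228, 12 of them with a positive difference and none at 2-fold. In the other lines 8, 10 and 12 of the 14 were positive, with medians of 0.097, 0.129 and 0.237. Of the 19 cholesterol genes (median -0.125) and the 13 mitochondrially encoded genes (median -0.015), none reached a 2-fold difference.

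Among 26 apoptosis regulators, 3 (11.5%) were at least 2-fold higher with avadomide and none lower, against 5.63% and 1% of all genes. In SUDHL-4, TMD8 and WSU-DLCL2, 1, 4 and 5 were higher, and TMD8 had 1 lower. BCL2L2, which encodes the anti-apoptotic protein BCL-w, was at 8.30 with DMSO, 8.70 with lenalidomide and 9.88 with avadomide. Its difference of 1.58 stood beside 0.21, 0.71 and 0.13 in the other lines. BIRC2, the inhibitor of apoptosis cIAP1, was at 12.60, 13.13 and 13.98, and TNFSF10, the death ligand TRAIL, at 8.59, 8.52 and 9.90. Among 20 p53 targets TP53I3 was the member at least 2-fold higher (5%, against 5.63% of all genes), at 8.34, 8.61 and 9.72. CDKN1A, the cell cycle inhibitor p21, was at 12.42, 13.02 and 12.85. The CDKN1A difference of 0.43 with avadomide was the smallest of the lines, beside 1.34, 0.86 and 2.14 in the other lines. Over all lists, none of the 448 distinct genes fitted departed from the other lines at limma's threshold with either compound, the smallest adjusted p being 0.166 with avadomide. With 0.0133% of all genes called for avadomide and 0% for lenalidomide, a count of 0 among them lies at the background.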

How the data were processed

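RNA abundance was measured by sequencing in 12 libraries, 1 for each of 4 cell lines and 3 treatments. The authors deposited 1 table, with a log2 value for each gene in each library, from -2.41 to 20.1. The submitters' processing notes list hg38 as build and STAR, Salmon and MACS as tools, with no versions; MACS is a peak caller. How these log2 values were normalized and transformed before they were deposited is not stated. Read counts could not be recovered from them, so sequencing depth is unknown and counting error was not estimated. Of 58684 entries, 28 turned into calendar dates were left out, and 17112 were listed at 0 in every library. There is 1 library for each line and treatment, and no label says that lines were treated in separate cultures, so p-values measure the spread between these libraries, which may be technical.

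Changes were differences of deposited log2 values, with no pseudocount. The model was fitted to all 12 libraries with limma (version 3.58.1, R 4.3.3) and a variance prior that follows intensity, with cell line, treatment and treatment within U2932 as terms, for 22528 genes at a log2 value of 1 or more in at least 4 libraries. It has 4 residual and a median of 7.48 total degrees of freedom, and the script was tested on simulated data. Cell line pairs the libraries of a line. List members were counted where a log2 value of 5 or more was reached in any library. Of the list symbols, 5 matched under an older name. Genes are named by rule: CRBN, IKZF1, IKZF2, IKZF3, IRF4, MYC and IRF7; the 12 widest differences in each direction and compound; up to 8 called genes per side; the 8 widest gaps per side; and the 4 widest avadomide differences per list. Marker genes and others said to be so were named after their values were seen. The members, the 21 lists with their 6 marker lists, and the rules were chosen with earlier results of these data known. Gene positions are from GENCODE (hg38) and promoter sequences from RefSeq (GRCh38.p14).

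A few genes are not reported here. Alternatives were quantile normalization, other filters, no intensity trend, fewer libraries, no cell line term, other floors and sizes of difference, and centring.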

Additional observations from a re-analysis of the deposited data

Results flagged for a closer look

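With avadomide, 3 genes departed in U2932 from the mean of the other lines by the limma test with Benjamini-Hochberg adjustment: LRFN4 by 1.52 (SE 0.113, adjusted p = 0.0189), C1orf186 by 1.69 (SE 0.125, adjusted p = 0.0189) and NELL2 by 2.09 (SE 0.172, adjusted p = 0.0252). LRFN4 and C1orf186 were also higher with lenalidomide than with DMSO in U2932, by 0.77 and 0.82. The DMSO value of LRFN4 was lower in U2932 than in each other line. Of the described genes, 3 others with a difference of at least 1 in size in U2932 moved the opposite way in all 3 other lines, which was not itself called by a test. ASIC1 was higher by 2.36 in U2932 with avadomide, from a DMSO value below that of each other line. RN7SK differed by -1.07 in U2932. CCL17 differed by -1.15 in U2932, but it was at 2.03 or less in every library of SUDHL-4 and WSU-DLCL2, where no fall could be seen.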

How the results depend on the processing

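The count of genes that depart in U2932 from the other lines with avadomide, 3 as reported, depended on the fit. It was 0 with only the 8 libraries compared, 0 with no replicate block, that is, without the pairing by cell line, 0 without the intensity trend and 0 to 0 when SUDHL-4, TMD8 or WSU-DLCL2 was left out. It was 12 after quantile normalization, 3 at a filter of log2 5 and 1640 with no filter. For lenalidomide it was 0 in 8 of 9 alternatives and 1101 with no filter. Of the 1640 and 1101 genes, 1359 and 1036 were below a log2 value of 1 in all 12 libraries. Lowering the floor to 5 gave 737 higher and 132 lower genes with avadomide and 217 and 35 with lenalidomide. A floor of 9 gave 204 and 50, and 43 and 7. A difference of at least 1.5 gave 201 and 32, and 37 and 3. Quantile normalization and centring moved no such count by more than 1.5 times. Of 126 recomputed list medians 122 moved by 0.141 or less. The median of immune ligands and checkpoints with avadomide was 0.333 after quantile normalization, that of early B progenitor genes was 0.237 then and 0.155 at the floor of 7, and that of chemokines with lenalidomide was -0.149 at that floor. No difference of a described gene within U2932 changed sign where it was at least 1 in size. The causes were not tested. Depth is unknown, and with 1 library per treatment in U2932 no spread within the line can be given.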
